A study of Homo sapiens with 22 samples.

Results

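MOLM-13 is an established line of human acute myeloid leukaemia of monocytic type that carries a fusion of KMT2A and an internal tandem duplication in FLT3. The comparison described here sets 2 RNA-seq libraries of MOLM-13 cells treated with 1 µM BRM014 for 24 h against 2 libraries of MOLM-13 cells given DMSO, the solvent, in equal volume. These 4 libraries were chosen by their labels out of 22 in the series, which form 11 groups of 2, and all 28063 gene symbols of the count files entered. BRM014 inhibits SMARCA4 and SMARCA2, the 2 alternative ATPases of the SWI/SNF complexes. The labels mark the cells as wild type and report culture in RPMI medium with serum. They say that cells were treated for 24 h or 72 h but not how long the DMSO libraries had been in culture, so the effect of BRM014 and of time in culture cannot be told apart. Whether the libraries of a group came from separate cultures is not stated, so every p-value rests on a spread between libraries that could be technical alone. MOLM-13 is a single line. The corresponding libraries of MV-4-11 and THP-1, also leukaemia lines with KMT2A fusions given DMSO or 1 µM BRM014 for 24 h, and MOLM-13 libraries after 72 h of BRM014 are used where they show a difference.

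SWI/SNF complexes use ATP to slide or evict nucleosomes and so keep enhancers and promoters open for transcription factors. In myeloid leukaemia cells they act at many enhancers together with PU.1 (gene SPI1), the ETS factor that sets the monocyte and granulocyte gene program, and they are known to keep up the enhancer-driven transcription of MYC. MYC in turn drives ribosome production, while other factors named below control lipids, amino acids and the interferon response.

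The 4 libraries held 15893489 to 16871069 reads in genes and 15889 to 16200 genes with at least 1 read. The 2 libraries of a group correlated at r = 0.991 after BRM014 and r = 0.990 in DMSO over genes on the log2 CPM scale, and both pairs varied beyond counting error. CPM is a gene's count scaled to a fixed library size, after TMM scaling of the libraries. Of 13 markers of monocytic leukaemia, 12 had at least 18.8 CPM in both DMSO libraries, among them LYZ, MPO, CD33 and ITGAM. ANPEP, which encodes the myeloid surface enzyme CD13, had 0 counts in both. EPCAM, KRT19, HBA1, CD2 and MS4A1, defining genes of other cell types, had 0 counts in all 4 libraries, while other members of those lists were expressed, VIM, IGLL1 and NKG7 most, and are described below.

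After 24 h of BRM014, 3808 of 16794 tested genes rose (22.7%) and 3952 fell (23.5%), 46.2% in all, in edgeR's quasi-likelihood test at a Benjamini-Hochberg adjusted p under 0.05. The words rose, fell, higher and lower refer to this call below. Log2 values are fold changes ± SE from 2 libraries against 2, and the median over all tested genes was 0. Genes were tested if they passed the count filter over the whole series. Some of them, such as ALB and AADAT, had 0 reads in both MOLM-13 groups and could not be called. The shares and the median over all tested genes include such genes, while most list members below are expressed. The median size of a called change was 0.73 for rises and 0.81 for falls on the log2 scale, and 65.3% of the rises and 60.3% of the falls were smaller than 2-fold. In a test against a 2-fold change, 599 genes rose (3.57%) and 787 fell (4.69%), 8.25% in all. These counts were 742 and 655 with scaling by library size alone, which turns their balance, and 401 and 561 in DESeq2. Scaling by library size alone in place of TMM moved the median gene by 0.13 on the log2 scale and turned the split into 4656 rises and 3193 falls, 59.3% of the calls higher against 49.1%. Changes are therefore relative to the median gene, and small ones depend on the scaling. The CPM of the 2 groups did not overlap in 11306 genes (67.3%), so with 2 libraries a group their separation in a gene named below is the usual outcome and not a further result.

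**Figure D1:**
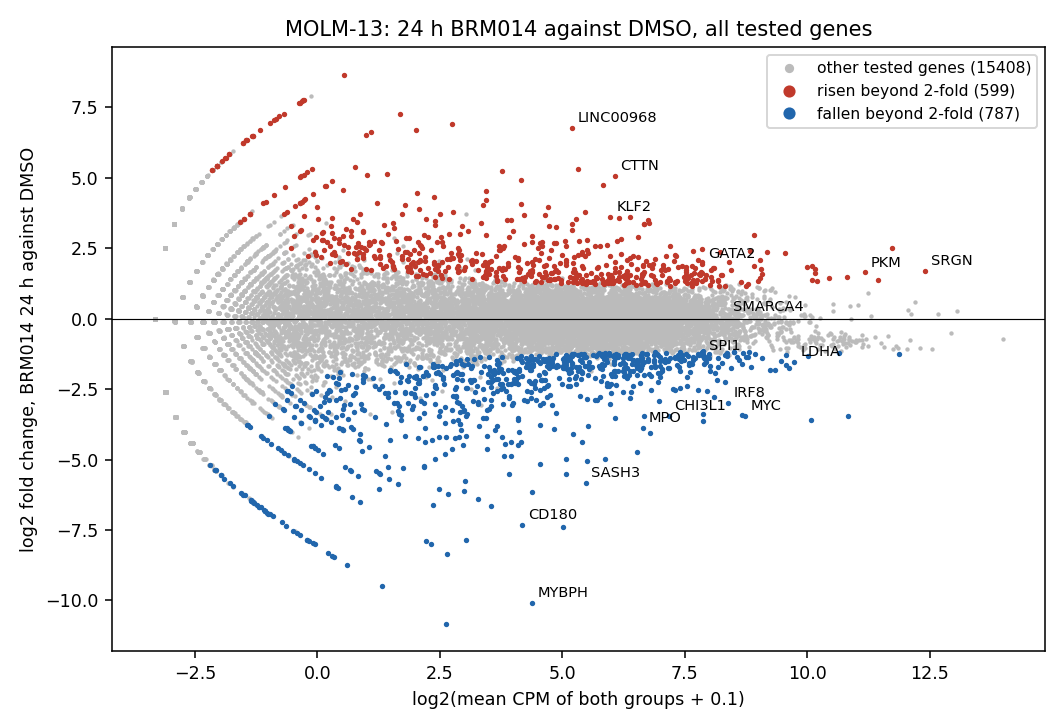
Log2 fold change of each of 16794 tested genes in MOLM-13 (BRM014 24 h against DMSO, y axis) by its mean level (x axis, log2 of CPM + 0.1), with the 599 genes risen and the 787 fallen beyond 2-fold in colour. The curved rows of points at the left and along the edges are genes with 0 or few counts in 1 group, whose fitted change has no firm size; MYC, IRF8 and MYBPH lie well below the line and LINC00968, CTTN and KLF2 well above it.

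The 12 largest rises among genes of at least 5 CPM started from very low levels. LINC00968, a long noncoding RNA, had 0.850 and 0.426 CPM in the DMSO libraries and 72.1 and 72.1 CPM after BRM014, a change of 6.79 ± 0.18 (adjusted p = 2.98e-16). HP, which encodes the haemoglobin-binding plasma protein haptoglobin (GRCh38 chr16:72054592-72061055), had 1.96 and 1.92 CPM in DMSO and 82.5 and 73.7 CPM after BRM014, a change of 5.33 ± 0.25. CTTN, which encodes the actin-branching protein cortactin (chr11:70398404-70436584), went from 3.21 and 4.55 CPM to 127 and 133 CPM, a change of 5.08 ± 0.14. In each of these 3 genes both treated libraries lay far above both DMSO libraries, and the treated libraries differed little from each other.

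MAFA, a bZIP transcription factor, was nearly silent in DMSO, with 3 reads in both libraries together against 420 after BRM014. Its CPM ratio was 129 (exact 95% interval 43.9 to 628). GPAT3, an acyltransferase of triglyceride synthesis, had 2 reads against 250, a CPM ratio of 115 (exact 95% interval 31.6 to 957). ID1, which blocks basic helix-loop-helix factors, rose from 3.86 and 4.40 CPM to 99.96 and 120.2 CPM (4.74 ± 0.14). HMOX1, the haem-degrading oxygenase, rose from 0.589 and 1.21 CPM to 19.4 and 22.2 CPM (4.54 ± 0.29). The cytoskeletal genes SYNPO (log2 5.26 ± 0.22) and MAP1A (4.22 ± 0.38), the heparan sulfate proteoglycan gene SDC3 (4.94 ± 0.24), the steroid sulfotransferase gene SULT2B1 (4.46 ± 0.56) and GPRIN1 (4.32 ± 0.25) complete the 12. With so few reads in DMSO, single DMSO libraries set the size of some of these rises. Without DMSO replicate 1 the change was 6.10 for SDC3, 3.74 for SULT2B1, 7.38 for LINC00968, 10.21 for GPAT3 and 5.91 for MAFA. Without DMSO replicate 2 it was 4.34, 5.80, 5.84 and 10.96 for SDC3, SULT2B1, GPAT3 and MAFA and 5.13 for HMOX1. Each of these genes remained a called rise in both fits. Where the DMSO library left had 0 reads, as for MAFA and GPAT3, the fitted size has no firm meaning.

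The 12 largest falls were genes that went to 0 or to a few reads. TIFAB, which encodes an adapter of the TRAF6 pathway, had 12.9 and 11.5 CPM in DMSO and 0 reads in both treated libraries, which makes it at least 129.8-fold lower against a floor of 3 counts over the group. It shares exons on the same strand with DCANP1 (chr5:135444214-135447348), which fell from 20.3 and 17.9 CPM to 0.191 and 0.248 CPM (-6.40 ± 0.39), so reads of these 2 genes may not be separable. MYBPH, a myosin-binding protein gene of muscle, had 1208 reads in DMSO and 1 after BRM014. The highest treated library of MYBPH held 0.0637 CPM against 38.7 and 43.8 CPM in DMSO.

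The other falls left a few reads as well. CD180, a Toll-like receptor homologue of B cells and monocytes, fell from 38.4 and 33.3 CPM to 0.255 and 0.186 CPM (-7.31 ± 0.37). INHBA, which encodes the activin A subunit, fell from 71.1 and 57.8 CPM to 0.573 and 0.186 CPM (-7.39 ± 0.43), and RASGRP4, a Ras exchange factor of myeloid cells, from 11.3 and 13.3 CPM to 0.0637 and 0.248 CPM (-6.23 ± 0.39). In all 3 the lowest DMSO library lay far above the highest treated library. The cytokine gene IL32 kept 1 read of 361 and the pore-forming protein gene MPEG1 1 of 290. MS4A14 kept 2 of 473 (its exons overlap MS4A7) and the mucin gene MUC19 1 of 266. NEXN, an actin-binding protein gene, fell from 25.97 and 19.8 CPM to 0.191 and 0.248 CPM (-6.66 ± 0.39). LTB, which encodes lymphotoxin beta, differed most of these between the DMSO libraries, with 1.64 and 18.3 CPM, against 0.191 and 0 CPM after BRM014, and its change was -4.02 without DMSO replicate 2 and -7.50 without DMSO replicate 1. Leaving out a treated library moved fitted folds of such near-zero genes further, to -8.39 for INHBA and -7.45 for RASGRP4 with the library that held more of their few reads left out.

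**Figure D2:**
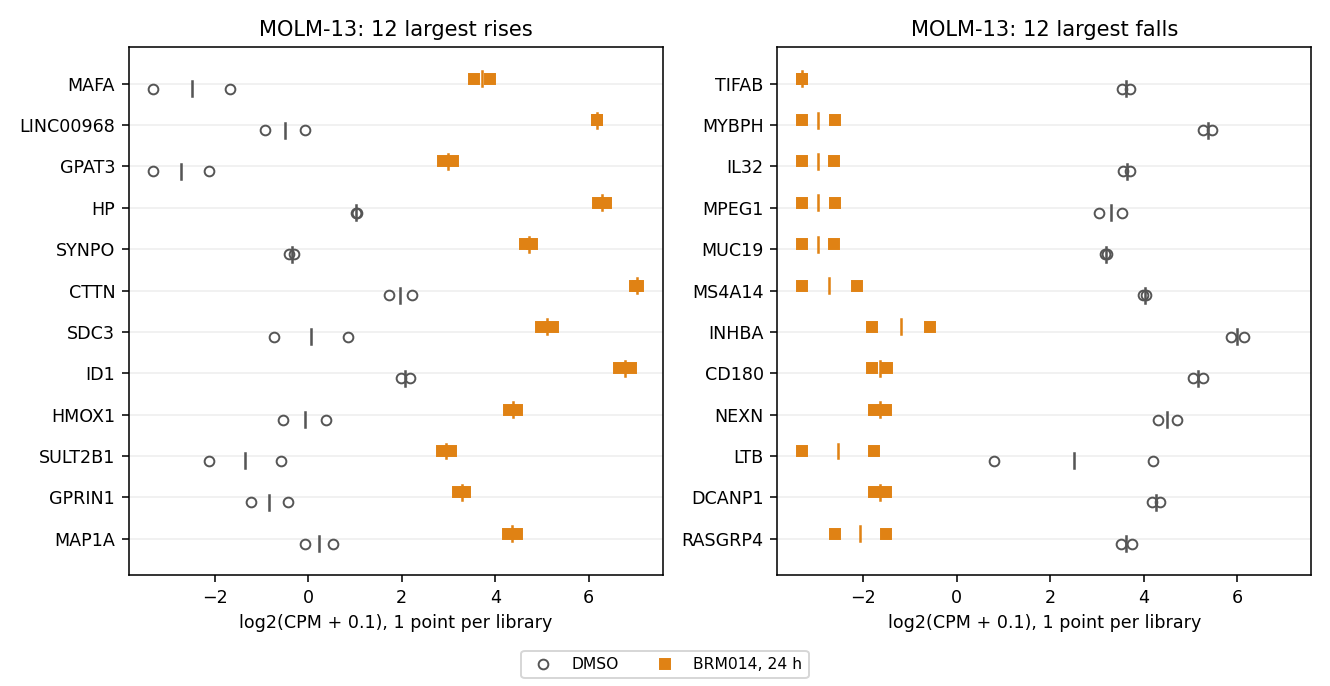
Each library's level (log2 of CPM + 0.1, x axis) of the 12 largest rises (left) and the 12 largest falls (right) in MOLM-13, with open circles for DMSO, filled squares for BRM014 24 h and a bar at each group's mean of log2 values. The groups do not overlap in any of the 24 genes, which the choice of genes required, and LTB shows the widest gap between its DMSO libraries.

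The drug's targets did not pass the test in mRNA. SMARCA4 had 313 and 330.2 CPM in DMSO and 332 and 344 CPM after BRM014, a change of 0.07 ± 0.07 (adjusted p = 0.42). SMARCA2 had 144 and 134 CPM and 149 and 155 CPM (0.13 ± 0.06, adjusted p = 0.099). The mRNA level says nothing about the enzymes' activity. Of 27 tested SWI/SNF subunit genes, 13 rose and 4 fell, with a median of 0.36. The 2 alternative scaffold subunits of the noncanonical complex were among the risers, as BICRA went from 29.4 and 33.9 CPM to 68.6 and 85.5 CPM (1.28 ± 0.15) and BICRAL from 44.4 and 45.9 CPM to 98.6 and 107 CPM (1.19 ± 0.10). The bromodomain subunit BRD9 of the same complex fell from 73.8 and 81.98 CPM to 53.5 and 55.3 CPM (-0.52 ± 0.11). Its exons overlap those of genes on both strands in the annotation. SMARCC1 (-0.40), ACTL6A (-0.38) and SMARCD2 (-0.32), all counted as core subunits in the list, were the other falls. They were named here after their values were seen, as are the exceptions given for other lists below.

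**Figure D3:**
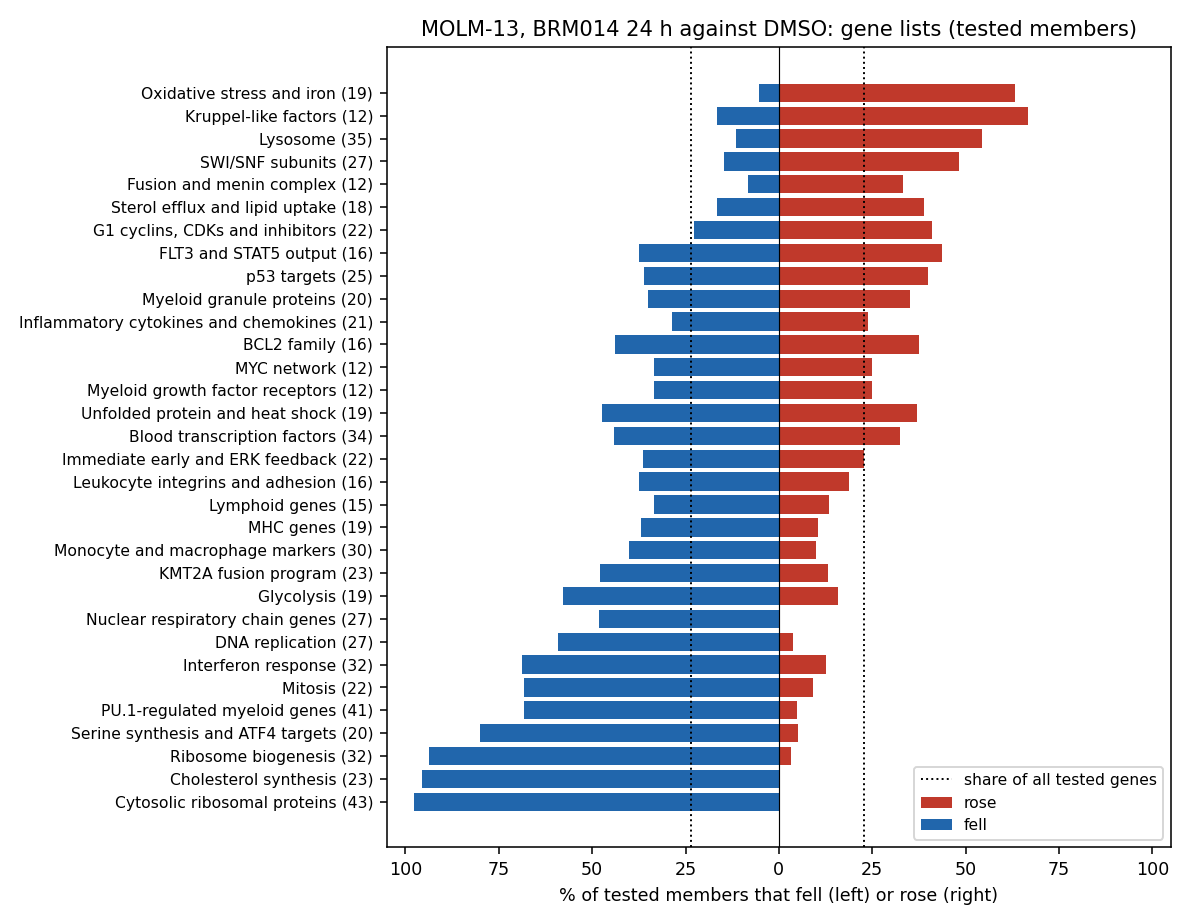
Share of the tested members of each gene list (number tested in parentheses) that rose (right) or fell (left) in MOLM-13 after 24 h of BRM014, for lists with at least 10 tested members. The dotted lines mark the 22.7% and 23.5% of all tested genes that rose and fell; ribosomal protein, cholesterol and ribosome biogenesis genes fell almost throughout, and oxidative stress, Krüppel-like factor and lysosome genes lie at the other end.

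Among 34 tested transcription factors of blood development 11 rose and 15 fell, against 22.7% and 23.5% of all tested genes. SPI1, which encodes PU.1, had 297 and 375 CPM in DMSO and 121 and 145 CPM after BRM014, a fall of -1.33 ± 0.12 (adjusted p = 8.66e-09). IRF8, the partner of PU.1 in monocytes and dendritic cells, fell further, from 585 and 603 CPM to 77.3 and 70.95 CPM (-3.00 ± 0.09, adjusted p = 1.82e-15). CEBPE, a factor of late granulocytes, went from 6.87 and 8.03 CPM to 0.891 and 1.05 CPM (-2.93 ± 0.35). In each of these genes the treated libraries lay below both DMSO libraries.

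Other factors moved the opposite way. GATA2, a factor of stem and progenitor cells, rose from 85.4 and 103.7 CPM to 371 and 363 CPM (1.96 ± 0.10). RUNX1 rose from 229 and 236 CPM to 551 and 588 CPM (1.29 ± 0.07), and the repressor gene GFI1 from 250.1 and 270.0 CPM to 512 and 513 CPM (0.98 ± 0.06). The treated pairs of these 3 genes lay close together and above both DMSO libraries. CEBPA, the granulocyte-monocyte factor, rose by less (0.49 ± 0.10), as did MYB (0.31 ± 0.07). CEBPB did not pass the test (0.13 ± 0.17, adjusted p = 0.58), and its value turned negative without 1 treated library.

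Genes that PU.1 is known to regulate in myeloid cells fell on the whole, 28 of 41 tested against 2 that rose, with a median of -1.14. Of the 16 receptors 13 fell and none rose. The 2 rises were ELANE, described below, and the oxidase subunit gene NCF1 (0.66), which has near-identical copies. CSF1R, the receptor for the monocyte growth factor M-CSF, went from 29.6 and 28.8 CPM to 0.573 and 0.681 CPM (-5.53 ± 0.22). ITGAX, the integrin chain CD11c, went from 35.1 and 46.9 CPM to 0.891 and 0.248 CPM (-6.16 ± 0.27, and -7.33 without treated replicate 1). Neither gene kept more than a small remainder of its DMSO level in any treated library. BTK, the kinase downstream of antigen and Toll-like receptors, fell from 198 and 187 CPM to 33.7 and 33.5 CPM (-2.52 ± 0.08). SASH3, a lymphocyte and myeloid adapter gene outside that list, fell from 80.5 and 94.1 CPM to 1.85 and 1.24 CPM (-5.82 ± 0.16). CTSS fell (-2.03 ± 0.10) while CTSL, another cathepsin, rose (3.30 ± 0.11).

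The promoter of BTK is shown because it holds the PU.1-like ETS motif GAGGAAGT at 2 places, and because BTK is a long-known PU.1 target. The 250 bases before its RefSeq start (GRCh38.p14 chrX:101390797-101391046, minus strand, 5′ to 3′ along the gene) are given with these matches in capitals, both on the opposite strand of the gene.
BTK: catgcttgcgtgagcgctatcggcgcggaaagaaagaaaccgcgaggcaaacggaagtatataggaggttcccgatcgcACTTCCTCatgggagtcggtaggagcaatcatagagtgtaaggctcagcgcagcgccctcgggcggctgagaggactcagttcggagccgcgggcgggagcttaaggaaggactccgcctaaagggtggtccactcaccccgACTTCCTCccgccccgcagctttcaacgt
Searched on both strands in windows from 250 bases before to 50 after the start, this motif was found in 2.69% of 12176 tested genes with a window, in 25.9% of 27 PU.1-regulated genes, and in 4.76% of the genes that fell and 2.46% of those that rose beyond 2-fold. The AP-1 motif TGACTCA was found in 3.36% of all tested genes and in 6.23% of those fallen and 4.02% of those risen beyond 2-fold. A match describes the letters only. BTK, like MCOLN1 and IFIT3 below, is outside the rule for named genes and was chosen after its values and its motif matches were seen.

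Other myeloid groups were mixed. All 5 called members of 6 tested MS4A genes fell, MS4A7 from 113 and 113 CPM to 3.25 and 3.96 CPM (-4.97 ± 0.18). Of 30 monocyte and macrophage markers 12 fell and 3 rose, CD68, LGALS3 (1.24) and MERTK (2.54). CD14 had 7 reads after BRM014 against 1 in DMSO and did not pass the test (adjusted p = 0.13). The lysosomal glycoprotein gene CD68 rose from 109.8 and 116 CPM to 337 and 332 CPM (1.57 ± 0.07). CD44, the hyaluronan receptor, fell from 87.5 and 94.1 CPM to 19.5 and 19.6 CPM (-2.21 ± 0.13), and CSF2RB, the shared beta chain of the GM-CSF and IL-3 receptors, from 20.6 and 21.3 CPM to 0.700 and 0.991 CPM (-4.62 ± 0.22). Myeloid growth factor receptor genes as a list were mixed. Of 12 tested, 3 rose and 4 fell, with a median of -0.10, against 22.7% and 23.5% of all tested genes. ICAM3, an adhesion molecule, rose (1.21 ± 0.11). The granule protein genes split evenly with 7 rises and 7 falls among 20, and 4 of 20 rose without DMSO replicate 1. MPO, myeloperoxidase, fell from 184 and 189 CPM to 13.5 and 11.9 CPM (-3.87 ± 0.19), LYZ, lysozyme, from 246 and 229.6 CPM to 118 and 117 CPM (-1.02 ± 0.07), and the granule proteoglycan gene SRGN rose from 2684 and 2432 CPM to 8659 and 7920.3 CPM (1.70 ± 0.07). ELANE, neutrophil elastase, varied widely within groups, with 77.1 and 161 CPM in DMSO and 349 and 146 CPM after BRM014, and its rise of 1.06 was not called without treated replicate 1 (0.30) or DMSO replicate 1 (0.62).

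Genes that KMT2A fusions drive shifted by small amounts. Of 23 tested, 11 fell and 3 rose (ELL2, ARID1B and IGF2BP2), with a median of -0.22, and the falls numbered 7 without treated replicate 2 and 7 with scaling by library size alone. HOXA10 fell from 37.7 and 42.8 CPM to 14.01 and 13.9 CPM (-1.53 ± 0.15). HOXA9 had 18.8 and 28.6 CPM in DMSO and 20.3 and 22.1 CPM after BRM014 (-0.16 ± 0.18, adjusted p = 0.53), so the treated libraries lay between the DMSO libraries. The cofactor gene MEIS1 fell by 0.55 (from 64.04 and 67.3 CPM to 40.2 and 49.6 CPM), a call lost without treated replicate 1 (-0.40, adjusted p = 0.1). MEF2C fell by 0.22, a call lost without treated replicate 2 (-0.15) or DMSO replicate 1 (-0.12), and CDK6 did not pass the test (0.06 ± 0.10). KMT2A itself rose from 57.2 and 55.1 CPM to 87.3 and 97.9 CPM (0.72 ± 0.12); the counts do not separate the fusion from the normal allele. FLT3, the receptor kinase that carries the activating duplication in this line, fell from 553 and 513 CPM to 443 and 423 CPM (-0.30 ± 0.06).

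Of 16 genes of FLT3 and STAT5 output 7 rose and 6 fell, against 22.7% and 23.5% of all tested genes. The cytokine gene OSM rose from 7.59 and 9.38 CPM to 61.6 and 54.4 CPM (2.78 ± 0.14) and CISH, a STAT5-induced feedback inhibitor, from 88.2 and 100.2 CPM to 269 and 279 CPM (1.54 ± 0.09). PIM3, a survival kinase, fell from 82.03 and 107 CPM to 47.8 and 53.6 CPM (-0.90 ± 0.11). CISH (chr3:50606490-50611831) overlaps exons of MAPKAPK3 on the other strand, and the strand of counting is not given in the sources used here.

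The growth-promoting transcription factor gene MYC fell strongly. It had 744 and 809 CPM in DMSO and 73.1 and 70.02 CPM after BRM014, a change of -3.44 ± 0.08 (adjusted p = 9.19e-17). CCDC26, a noncoding gene near MYC whose region holds blood enhancers of it, fell from 30.9 and 23.02 CPM to 1.53 and 0.929 CPM (-4.45 ± 0.31). The paralog MYCL rose from 14.1 and 13.8 CPM to 68.00 and 64.5 CPM (2.25 ± 0.10), and the antagonist MXI1 fell (-1.15 ± 0.13). MXI1 was the only fall among 6 tested antagonists, of which 2 rose, with a median of 0.10. Of all 12 tested MYC network genes 3 rose and 4 fell, with a median of 0.03, against 22.7% and 23.5% of all tested genes.

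Of 32 tested genes of ribosome biogenesis, 30 fell and 1 rose, with a median of -1.17. All 26 nucleolar members fell. NOLC1, a nucleolar phosphoprotein gene, went from 429.6 and 383 CPM to 119 and 108 CPM (-1.84 ± 0.07) and LYAR, a nucleolar zinc finger gene, from 88.3 and 85.5 CPM to 24.8 and 25.3 CPM (-1.80 ± 0.12). RRN3 was not called (0.07). The rise was UBTF, which encodes the upstream binding factor of RNA polymerase I, with 244 and 256 CPM in DMSO and 343 and 361 CPM after BRM014 (0.49 ± 0.08). Cytosolic ribosomal protein genes fell in 42 of 43 cases and by less, with a median of -0.85. RPL12 had 2318 and 2225 CPM in DMSO and 1069.5 and 987 CPM after BRM014 (-1.14 ± 0.12), and RPL35 1227 and 1414 CPM and 655 and 566 CPM (-1.11 ± 0.18). Ribosomal protein genes have many near-identical pseudogenes, so single values are uncertain. The E-box CACGTG, which MYC and TFEB family factors bind, was found on either strand in 30.8% of 26 ribosome biogenesis promoters against 9.66% of all tested genes.

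Genes of cholesterol synthesis fell. SREBP2 controls these enzymes together with the factor NF-Y, and 22 of 23 tested members fell while none rose, with a median of -1.46. INSIG1, the sterol sensor of the endoplasmic reticulum, had 722 and 766 CPM in DMSO and 67.7 and 72.3 CPM after BRM014, a change of -3.41 ± 0.07 (adjusted p = 2.68e-17). HMGCS1, the enzyme that makes HMG-CoA, went from 489 and 469 CPM to 74.4 and 66.00 CPM (-2.77 ± 0.10). In both genes the treated libraries lay close together and far below the DMSO libraries. The epoxidase gene SQLE (-1.62 ± 0.07) is a further member that fell, chosen here as a textbook step of the pathway after its values were seen, and the 1 member without a call was PMVK (-0.36), the phosphomevalonate kinase gene.

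The promoter of HMGCS1 is printed as an example of this group (GRCh38.p14 chr5:43313413-43313662, minus strand, 250 bases before the start), with its CCAAT boxes, the NF-Y motif, in capitals. Both lie on the opposite strand of the gene.
HMGCS1: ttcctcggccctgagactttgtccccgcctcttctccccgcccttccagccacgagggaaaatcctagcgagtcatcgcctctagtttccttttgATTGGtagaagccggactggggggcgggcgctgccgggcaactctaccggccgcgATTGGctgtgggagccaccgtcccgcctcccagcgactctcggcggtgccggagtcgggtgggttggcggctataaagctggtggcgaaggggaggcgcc
The letters CCAAT were found on either strand in 15 of 18 cholesterol gene windows (83.3%) against 35.8% of all tested genes, 32.4% of those fallen and 32.8% of those risen beyond 2-fold. The sterol response element TCACNCCAC was found in 1 of the 18 windows and in 1.13% of all.

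Among 18 tested genes of sterol efflux and lipid uptake 7 rose and 3 fell, against 22.7% and 23.5% of all tested genes. PPARG, the lipid-sensing nuclear receptor, rose from 11.3 and 10.4 CPM to 135 and 126 CPM (3.59 ± 0.11), and PLIN2, a lipid droplet coat gene, from 17.1 and 21.03 CPM to 69.8 and 62.2 CPM (1.79 ± 0.10). FABP5, a fatty acid carrier gene, fell from 299 and 308 CPM to 73.7 and 69.96 CPM (-2.08 ± 0.11). The other falls were MYLIP (-2.06), a ubiquitin ligase gene, and PPARD (-1.01).

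Serine synthesis and ATF4 target genes fell in 16 of 20 cases and rose in 1, with a median of -1.32. ATF4 is the transcription factor of the amino acid and stress response, and its own mRNA went from 745 and 813 CPM to 296 and 296 CPM (-1.40 ± 0.09). All 5 serine pathway genes fell, including PHGDH, its first enzyme, from 257 and 274 CPM to 75.8 and 72.6 CPM (-1.84 ± 0.11) and PSAT1 from 391.6 and 348 CPM to 67.04 and 60.5 CPM (-2.54 ± 0.10); these 3 genes were named after their values were seen. The 1 rise was ATF5 (0.38), a call lost without DMSO replicate 1 (0.28), and 3 members, among them ASNS and SLC7A11, were not called. CHAC1, a glutathione-degrading ATF4 target, fell from 12.3 and 15.3 CPM to 0.446 and 1.05 CPM (-4.18 ± 0.49, and -4.93 without treated replicate 2). NUPR1, a stress-induced nuclear protein gene, had 5.49 and 6.04 CPM in DMSO and 0.191 and 0.867 CPM after BRM014 (-3.42 ± 0.41), and its change was -2.72 and -4.87 without the one or the other treated library.

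Folding and energy genes changed in both directions. XBP1, the factor of the unfolded protein response, rose from 912 and 987 CPM to 2659 and 2667 CPM (1.49 ± 0.08), while the mitochondrial chaperonin genes HSPD1, from 996 and 888 CPM to 277 and 253 CPM (-1.83 ± 0.08), and HSPE1 (-2.24 ± 0.34) fell. HSPD1 and HSPE1 lie head to head and both have near-identical copies. Of 19 glycolysis genes 11 fell and 3 rose, and 1 rose without treated replicate 1 or DMSO replicate 1. HK2, hexokinase 2, went from 137 and 145 CPM to 43.6 and 40.4 CPM (-1.75 ± 0.11) and LDHA, lactate dehydrogenase A, from 1281 and 1267 CPM to 449 and 423 CPM (-1.55 ± 0.09). PKM, pyruvate kinase, was among the 3 that rose, from 1069 and 1179 CPM to 3514 and 3510.2 CPM (1.64 ± 0.09). Nuclear genes of the respiratory chain fell in 13 of 27 cases and rose in none, among them NDUFV1 (-0.77 ± 0.12) and COX5A (-0.71 ± 0.13). That count was 6 without treated replicate 2, 7 without DMSO replicate 2 and 9 with scaling by library size alone, where 1 member rose.

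Lysosome genes rose in 19 of 35 cases, with a median of 0.39, and 4 fell (CTSS, NEU1, GLA and ASAH1). DNASE2, the acid nuclease of lysosomes, went from 17.4 and 18.5 CPM to 182 and 188 CPM (3.36 ± 0.12). CTSL, the protease cathepsin L, went from 5.23 and 4.48 CPM to 47.2 and 48.5 CPM (3.30 ± 0.11). MCOLN1, the lysosomal calcium channel, rose from 25.3 and 27.9 CPM to 107 and 109.6 CPM (2.03 ± 0.13), and GRN, which encodes progranulin, from 445 and 490.3 CPM to 1657 and 1796 CPM (1.88 ± 0.07; named after its values were seen). The treated libraries of these 4 genes lay well above both DMSO libraries.

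The promoter of MCOLN1 (GRCh38.p14 chr19:7522374-7522623, plus strand, 250 bases before the start) holds the E-box CACGTG at 2 places, in capitals, close to the start. CACGTG reads the same on both strands.
MCOLN1: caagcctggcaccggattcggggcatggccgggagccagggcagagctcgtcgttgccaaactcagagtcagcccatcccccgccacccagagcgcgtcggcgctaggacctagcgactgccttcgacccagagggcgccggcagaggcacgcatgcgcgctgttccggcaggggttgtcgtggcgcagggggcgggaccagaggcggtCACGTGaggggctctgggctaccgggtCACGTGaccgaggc
The same E-box was found in 8 of 25 lysosome gene windows (32%), the group that rose, and in 8 of 26 ribosome biogenesis windows (30.8%), the group that fell.

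Of 19 genes of oxidative stress and iron, 12 rose and 1 fell, with a median of 0.66. The fall was the transferrin receptor gene TFRC (-0.30), a call lost without treated replicate 2 (-0.25) or DMSO replicate 1 (-0.22). Among NRF2 and its targets 10 of 12 rose and none fell. NQO1, a quinone reductase, went from 10.3 and 10.6 CPM to 73.2 and 68.5 CPM (2.76 ± 0.09), and HMOX1 is described above. Krüppel-like factor genes rose in 8 of 12 cases and fell in 2, KLF6 (-0.30) and KLF16 (-0.38). The falls numbered 0 without treated replicate 1 or DMSO replicate 2, where KLF16 was at -0.32 and -0.18. KLF2, a quiescence factor of leukocytes, went from 7.92 and 11.3 CPM to 108 and 125 CPM (3.61 ± 0.15), and KLF5 from 6.15 and 5.75 CPM to 83.03 and 82.03 CPM (3.79 ± 0.18).

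Cell cycle genes moved by small amounts. Of 27 DNA replication genes 16 fell and 1 rose (median -0.30), and of 22 mitosis genes 15 fell and 2 rose (median -0.31). With scaling by library size alone these falls numbered 11 and 10, and 4 replication genes rose. TOP2A, topoisomerase II alpha, had 621 and 491 CPM in DMSO and 333 and 295 CPM after BRM014 (-0.83 ± 0.12), and RFC3, a clamp loader subunit gene, 131 and 119 CPM and 63.1 and 64.8 CPM (-0.97 ± 0.10). The rises were the ribonucleotide reductase gene RRM2 (0.63 ± 0.07) and, among mitosis genes, the checkpoint kinase gene BUB1 (0.31 ± 0.07) and the spindle midzone gene PRC1 (0.25). Only 1 mitosis gene rose without treated replicate 1 or DMSO replicate 1. Of 22 genes of G1 control 9 rose and 5 fell; CCND1 (cyclin D1) rose from 3.86 and 5.97 CPM to 16.3 and 17.3 CPM (1.78 ± 0.15) and E2F2 by 1.19 ± 0.11, while CDK4, whose exons overlap TSPAN31, fell from 194 and 212 CPM to 95.95 and 89.7 CPM (-1.13 ± 0.10). The 5 falls became 1 without treated replicate 2 or with scaling by library size alone, and 3 without treated replicate 1 or either DMSO library.

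CDKN1A, the p21 inhibitor gene and a main p53 target, had 151 and 179 CPM in DMSO and 193 and 189 CPM after BRM014 (0.21 ± 0.08, adjusted p = 0.038), and this call was lost without treated replicate 1, treated replicate 2 or DMSO replicate 1 (0.20, 0.22 and 0.09). CDKN1B, the p27 inhibitor gene, fell by 0.40, a call lost without treated replicate 2 (-0.32), and CCND3, cyclin D3, fell by 0.20, lost without either treated library (-0.19 and -0.21) or DMSO replicate 2 (-0.10). Of 25 p53 targets 10 rose and 9 fell, with 6 rises when treated replicate 1 was left out. TP53INP1 rose from 13.5 and 13.1 CPM to 42.9 and 40.3 CPM (1.64 ± 0.15) and the death receptor gene TNFRSF10B from 114 and 116 CPM to 244 and 247 CPM (1.10 ± 0.08). PMAIP1, the BH3-only gene NOXA, fell from 64.04 and 61.3 CPM to 19.2 and 15.2 CPM (-1.87 ± 0.13). Among 16 BCL2 family genes 6 rose and 7 fell, and 3 rose without DMSO replicate 1. BCL2, the target of venetoclax, fell from 345 and 332 CPM to 202 and 209 CPM (-0.72 ± 0.07), MCL1 rose from 285 and 284 CPM to 788 and 754 CPM (1.44 ± 0.07), and BCL2A1 fell from 6.41 and 6.39 CPM to 0.127 and 0.186 CPM (-5.29 ± 0.54). BCL2L11, which encodes the death inducer BIM, did not pass the test (0.11 ± 0.10). The p53 and BCL2 family counts stand against 22.7% of all tested genes that rose and 23.5% that fell.

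Interferon response genes fell in 22 of 32 cases and rose in 4, with a median of -1.29. IFIT2, an interferon-induced RNA-binding protein gene, had 60.8 and 58.2 CPM in DMSO and 11.5 and 11.3 CPM after BRM014 (-2.38 ± 0.19), and its neighbour IFIT3 45.7 and 41.1 CPM and 8.34 and 8.48 CPM (-2.37 ± 0.16). IFI44 fell from 7.92 and 7.53 CPM to 0.446 and 0.371 CPM (-4.22 ± 0.37) and IFITM1, a restriction factor of viral entry that overlaps IFITM2, from 6.80 and 5.90 CPM to 0.318 and 0.371 CPM (-4.18 ± 0.34). The treated libraries of these 4 genes lay well below both DMSO libraries. IFI35 (0.92), IFITM2 (0.71) and IRF9 (0.32) were among the 4 rises, and the receptor chain gene IFNGR2 rose from 13.1 and 15.1 CPM to 48.96 and 56.8 CPM (1.90 ± 0.23).

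The interferon-stimulated response element, bound by STAT and IRF complexes, was found on either strand in 14 of 22 interferon gene windows (63.6%), in 0.838% of all tested genes, and in 2.38% of those fallen and 0.223% of those risen beyond 2-fold. The windows of IFIT3 (GRCh38.p14 chr10:89327747-89327996, plus strand) and IFI44 (chr1:78649539-78649788, plus strand) are shown because both genes fell in MOLM-13 and both windows hold the element. Capitals mark the elements and, in IFI44, also a CCAAT box farther from the start.
IFIT3: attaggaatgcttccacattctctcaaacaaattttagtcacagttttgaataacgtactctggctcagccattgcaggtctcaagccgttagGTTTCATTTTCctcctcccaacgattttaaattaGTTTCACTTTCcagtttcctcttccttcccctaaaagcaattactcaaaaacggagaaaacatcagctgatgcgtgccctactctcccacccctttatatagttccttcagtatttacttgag
IFI44: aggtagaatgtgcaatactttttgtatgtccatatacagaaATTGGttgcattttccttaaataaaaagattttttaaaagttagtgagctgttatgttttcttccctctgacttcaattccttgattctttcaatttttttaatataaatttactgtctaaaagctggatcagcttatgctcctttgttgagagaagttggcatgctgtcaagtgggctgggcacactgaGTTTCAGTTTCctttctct
IFIT3 has 2 elements before its start and IFI44 has 1, closer to the start.

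Of 21 inflammatory cytokine and chemokine genes 5 rose and 6 fell, near the 22.7% and 23.5% of all tested genes, and 4 of the 5 rises were NF-kB genes (NFKB1, NFKB2, RELB and NFKBIA) beside OSM. Of 19 MHC genes 2 rose and 7 fell; CD74, the invariant chain, went from 213 and 237 CPM to 61.3 and 71.1 CPM (-1.77 ± 0.09). HLA-E had 4.91 and 4.69 CPM in DMSO and 39.4 and 33.99 CPM after BRM014 (2.93 ± 0.65), and the immunoproteasome gene PSMB8 10.9 and 13.5 CPM and 1.97 and 1.67 CPM (-2.74 ± 0.46). Counts in the MHC region of chromosome 6 are uncertain, since 7 of 41 genes there (17.1%) differed over 4-fold between the DMSO libraries against 18 of 10003 elsewhere (0.18%). Only genes with at least 5 CPM in a DMSO library were counted for these shares. LTB lies in the MHC region.

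Markers of other cell types moved too, and their part in the results was not tested. Of 19 lymphoid genes 6 were at 0 in both DMSO libraries, and the list summed to 216 and 248 CPM in DMSO and 71.7 and 78.5 CPM after BRM014. Most of that came from IGLL1, described below, and NKG7, a cytotoxic granule gene that fell from 47.2 and 58.3 CPM to 5.67 and 4.71 CPM (-3.35 ± 0.25). Of 12 epithelial and fibroblast genes 7 were at 0, and VIM made up nearly all of the sum, with 273 and 303 CPM in DMSO and 751 and 707 CPM after BRM014 (1.34 ± 0.07). Erythroid and megakaryocyte genes summed to 29.5 and 35.8 CPM in DMSO and 61.4 and 59.99 CPM after BRM014, most of it EPOR, the erythropoietin receptor (0.93 ± 0.13).

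The change after 24 h differed from that in the other lines for many genes. Over genes, the log2 changes in MOLM-13 correlated at r = 0.42 with those in MV-4-11 and r = 0.39 with those in THP-1, and genes are not independent replicates. Both r values cover all 16794 tested genes, including those with 0 or few counts, whose fitted change has no firm size. Of the 7760 genes called in MOLM-13, 82.9% had the same sign in MV-4-11 and 79.8% in THP-1. A test of the difference, the MOLM-13 change minus the mean change of the other lines, called 1606 genes higher (9.56%) and 1724 lower (10.3%) in MOLM-13. Without treated replicate 2 these counts were 1161 and 1099. With scaling by library size alone they were 1944 and 1355, so the share higher went from 48.2% to 58.9%. Against MV-4-11 alone, 1732 genes were higher (10.3%) and 1984 lower (11.8%).

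Serine, cholesterol and interferon genes were often lower in MOLM-13 by this test. Of 20 serine and ATF4 genes 17 were lower in MOLM-13 by the test of the difference and none higher, and their median change was -1.32 in MOLM-13, 0.09 in MV-4-11 and -0.14 in THP-1. Of 23 cholesterol genes 19 were lower, with medians of -1.46, -0.77 and -0.23. INSIG1 changed by -0.67 in MV-4-11 and -1.02 in THP-1, a difference of -2.57 (adjusted p = 1.97e-13). Of 32 interferon genes 18 were lower and 3 higher, with medians of -1.29, -0.08 and -0.16. IFIT2 rose in MV-4-11 (2.55) and THP-1 (1.93) and fell in MOLM-13 (-2.38), a difference of -4.62 ± 0.29 (adjusted p = 6.64e-10). IFIT2 overlaps exons of LIPA on the other strand.

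The same test called many p53, immediate early and mitosis genes lower and none higher. Of 25 p53 targets 15 were lower and none higher, with 15 rises in MV-4-11 (23.6% of all genes rose there and 46.1% changed) and 14 in THP-1 (25.9%) against 10 in MOLM-13. CDKN1A changed by 2.23 in MV-4-11 and 3.40 in THP-1 and by 0.21 in MOLM-13, a difference of -2.60 ± 0.10 (adjusted p = 9.63e-13). Of 22 immediate early and ERK feedback genes 16 were lower and none higher, 9 of them without DMSO replicate 2, and medians were 0.03 in MOLM-13, 0.52 in MV-4-11 and 1.81 in THP-1. JUND, an AP-1 subunit gene, fell from 811 and 1328 CPM to 410.4 and 532 CPM (-1.18 ± 0.16) against 0.37 and 1.77 in the other lines, while the phosphatase gene DUSP1 rose (1.53 ± 0.23, against 1.32 and 3.38). Of 22 mitosis genes 16 were lower and none higher, 9 without DMSO replicate 1 and 10 without treated replicate 2. Of 43 ribosomal protein genes 24 were lower, but 4 without treated replicate 2, 8 without DMSO replicate 2 and 43 without the filter on low counts. The ribosomal protein medians were -0.85 in MOLM-13, -0.60 in MV-4-11 and -0.06 in THP-1. These genes fell in 42 cases in MOLM-13, 40 in MV-4-11 and 4 in THP-1, so the fall was shared with MV-4-11. Of 23 KMT2A fusion program genes 13 were lower and 2 higher, HOXA10 by -1.99 (adjusted p = 7.42e-08). FLT3 rose in MV-4-11 (0.77), which also carries the FLT3 duplication, a difference from both lines of -0.82 (adjusted p = 1.35e-07).

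**Figure D4:**
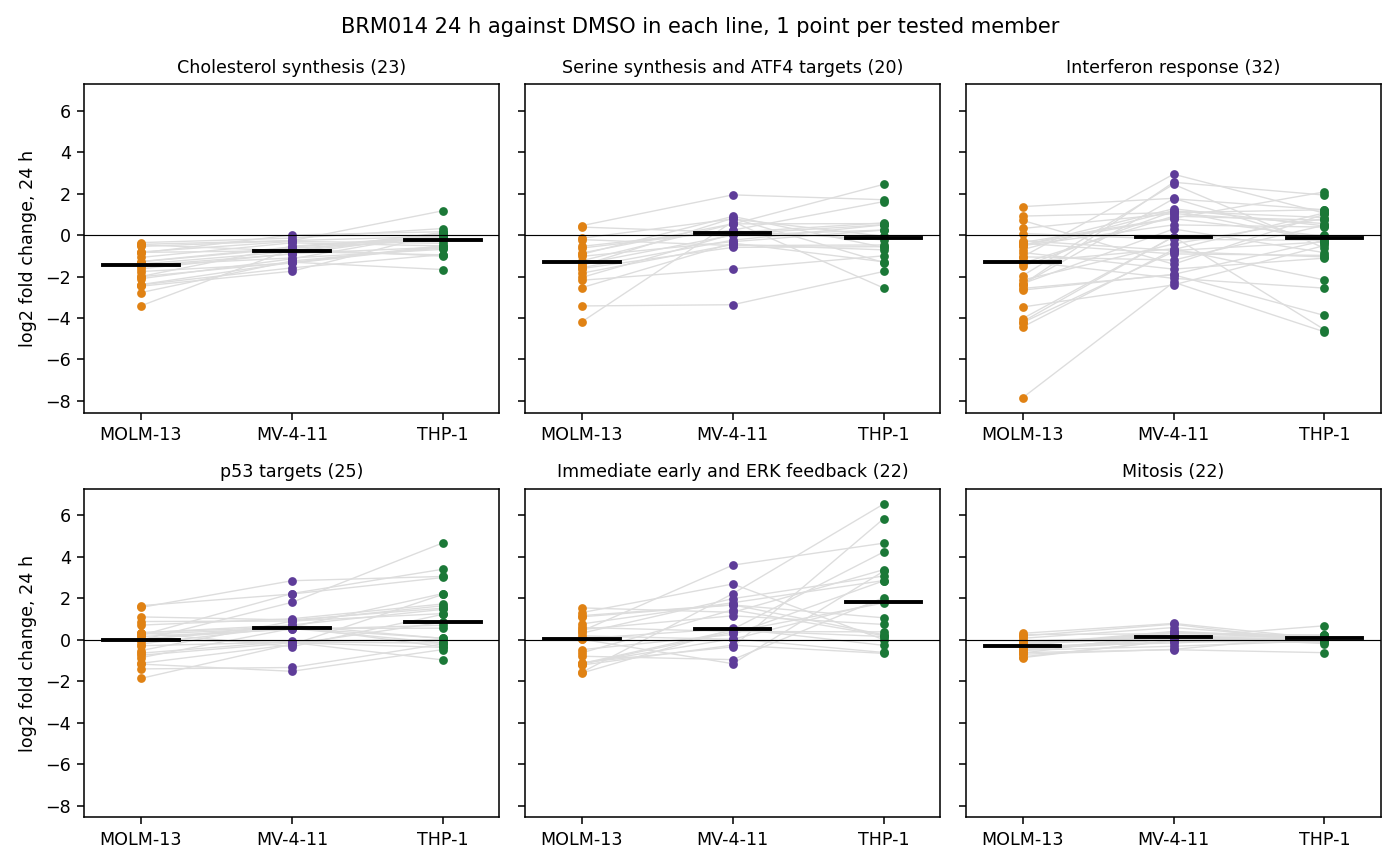
Log2 fold change (y axis) of each tested member of 6 gene lists after 24 h of BRM014 in MOLM-13, MV-4-11 and THP-1, with grey lines joining the same gene, a black bar at the median and the number of members in parentheses. The MOLM-13 medians of -1.46, -1.32 and -1.29 for the upper 3 lists lie below those of the other lines, and the p53 and immediate early medians of 0.00 and 0.03 lie below medians of 0.52 to 1.81.

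Some single genes went in opposite directions between the lines, while others differed in the size of the change or did not pass the test. CISH rose in MOLM-13 (1.54) and fell in MV-4-11 (-1.80) and THP-1 (-3.03), a difference of 3.95 ± 0.15 (adjusted p = 7.12e-13). SORL1, a sorting receptor gene, rose from 7.20 and 9.09 CPM to 37.9 and 32.7 CPM and changed by -1.73 and -1.64 elsewhere, and ZBTB16, the zinc finger factor PLZF, rose from 25.9 and 20.96 CPM to 62.3 and 59.1 CPM against -2.91 and -1.60. IGLL1, a surrogate light chain gene of early B cells, fell from 146 and 169 CPM to 54.6 and 62.9 CPM against 2.44 and 6.50. CD48, an adhesion ligand gene, fell from 29.8 and 29.6 CPM to 0.637 and 1.36 CPM (-4.88 ± 0.39, and -5.53 without treated replicate 2) against -0.61 and -0.20. CTTN rose in all 3 lines, by 5.08 in MOLM-13, 8.60 in MV-4-11 and 7.83 in THP-1, and the difference was -3.14 (adjusted p = 4.78e-08). MYC, IRF8, SASH3, LINC00968, PPARG and KLF2 did not pass the test of the difference, with differences of 0.01, -0.08, -0.02, -0.12, 0.16 and -0.04, which does not show that the lines are alike. SPI1 fell less than in the other lines, by 0.58 (adjusted p = 0.0059; -1.996 in MV-4-11 and -1.82 in THP-1).

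Many levels seen at 24 h were not those at 72 h. Between the times 3488 genes were higher (20.8%) and 3818 lower (22.7%) at 72 h, in a comparison of treated libraries only. MYC went on down to 8.55 and 9.67 CPM (72 h against 24 h -2.97 ± 0.10), and BCL2 to 25.2 and 29.5 CPM (-2.91 ± 0.08). TERT, telomerase reverse transcriptase, had 6.05 and 8.42 CPM at 24 h and 0.290 and 0.104 CPM at 72 h (-5.13 ± 0.36), and IGLL1 went to 0.773 and 0.780 CPM (-6.23 ± 0.22). ANGPT1 (-6.16 ± 0.51), GAL (-4.66 ± 0.34) and OCSTAMP (-4.88 ± 0.58) were the other 3 of the 5 largest falls. DNA replication genes, with a median change from DMSO of -0.30 at 24 h, had one of -1.83 at 72 h, when 27 of 27 were below DMSO. Of all tested genes 59.7% differed from DMSO at 72 h, 30.3% higher and 29.4% lower.

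Other genes turned around or went on rising. CHI3L1, a secreted chitinase-like protein gene, had 255 and 272 CPM in DMSO, 23.1 and 24.7 CPM at 24 h and 783 and 757 CPM at 72 h (72 h against 24 h 5.01 ± 0.09), and LYZ likewise went to 403 and 394 CPM (1.76 ± 0.07). Both genes lay below DMSO at 24 h and above it at 72 h in every library. GATA2 and NQO1, which had risen at 24 h, were back at 88.7 and 87.8 CPM and 11.7 and 12.9 CPM at 72 h (-2.05 ± 0.10 and -2.52 ± 0.09). C3, the complement component, had 11.4 and 13.3 CPM at 24 h and 419 and 423 CPM at 72 h (5.09 ± 0.11), and PTGDS, prostaglandin D synthase, 2.29 and 3.41 CPM and 237 and 233 CPM (6.36 ± 0.21). CHI3L2, a paralog of CHI3L1, had 0 and 0.186 CPM at 24 h and 10.2 and 9.93 CPM at 72 h, and LCNL1, a lipocalin-like gene, 0.191 and 0.310 CPM and 7.44 and 7.18 CPM. The rise of C3 and PTGDS over DMSO was already called at 24 h (0.79 ± 0.14 and 2.37 ± 0.42), that of PTGDS with 1.62 without DMSO replicate 1 and 3.82 without DMSO replicate 2. HP went to 646 and 684 CPM (3.09 ± 0.16), DNASE2 to 1004 and 982 CPM (2.43 ± 0.11) and CD68 to 968 and 1015 CPM (1.57 ± 0.07). SPI1 was at 185 and 184 CPM (0.47 ± 0.12).

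**Figure D5:**
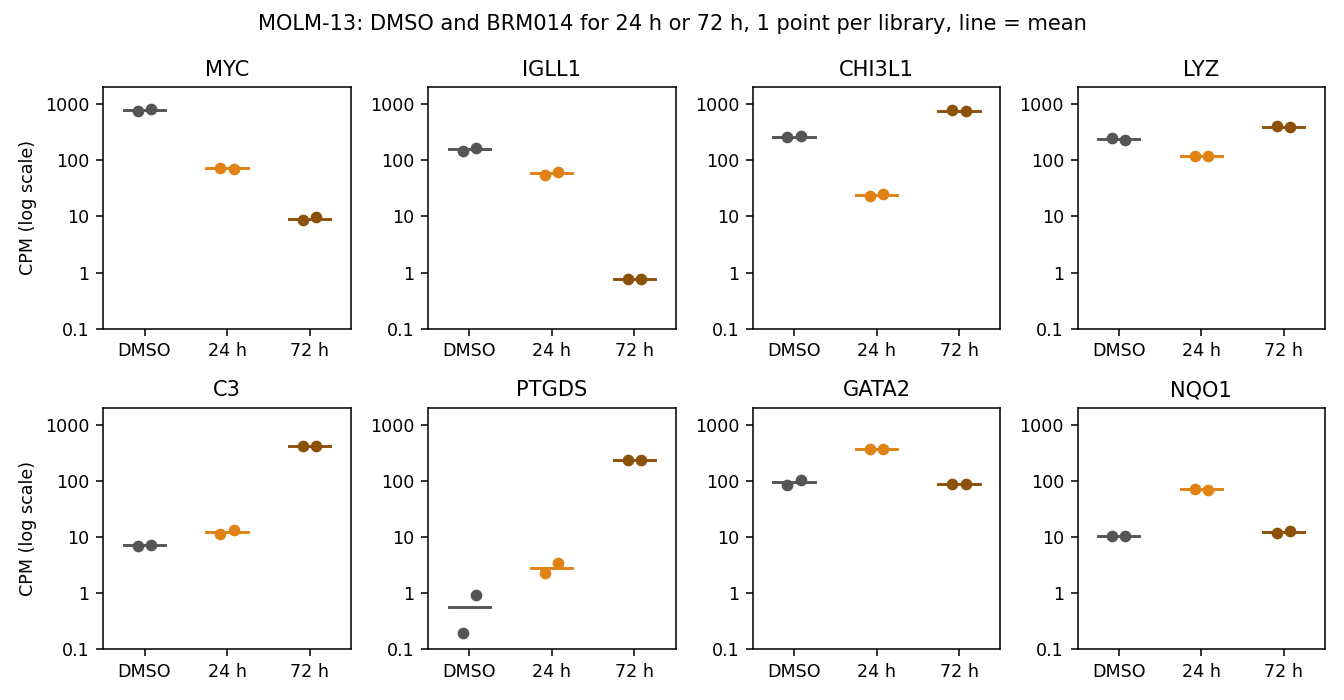
Level of 8 genes in MOLM-13 (CPM, log axis) in DMSO and after 24 h and 72 h of BRM014, 1 point per library with a line at the mean. MYC and IGLL1 go down at each step, CHI3L1 and LYZ are low at 24 h and high at 72 h, C3 and PTGDS rise mainly after 24 h, and GATA2 and NQO1 are high at 24 h alone.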

How the data were processed

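Polyadenylated RNA was sequenced, and the authors deposited whole-number read counts per gene symbol, 1 file per library and not normalized, per the file contents. HISAT2 2.1.0, HTSeq and DESeq2 with the build hg38 are listed, without roles, per the submitters' processing notes; the gene annotation and strand setting are not given in the sources used here, so overlapping genes are uncertain. The 5 summary lines of each file were left out; their no-feature line held 12.4% to 13.6% of counted reads in the 4 libraries.

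All 22 libraries (15893489 to 21565666 reads in genes) entered 1 edgeR 4.0.16 fit (R 4.3.3) with a coefficient per group, TMM scaling and filterByExpr with a minimum count of 10, which kept 16794 genes. Contrasts were tested with the quasi-likelihood method, p-values were adjusted by Benjamini and Hochberg's procedure (threshold 0.05), and glmTreat tested beyond 2-fold. Each SE was derived from the log2 fold change and its F statistic. In simulated counts for 16586 genes, 100 genes were changed 2-fold and 100 were changed 4-fold, all with a DMSO mean of at least 10 counts. Of these, 79% and 94% were recovered, and 0.061% of unchanged genes were called. In the data 46.2% of genes were called, a far larger share, so these rates need not hold there or for genes with fewer counts. A count of 0 in 1 of the 4 libraries allows up to 3 counts. That is 0.178 to 0.189 CPM by library size alone, without the TMM scaling used for the other CPM values. The TMM factors of the 4 libraries were 0.886 to 0.981, so 3 counts are somewhat more on the TMM scale. Floors and intervals (exact, 95%) come from reads summed over each group and include no error beyond counting. The spread between libraries, which went beyond counting error, is left out of them. PCR copies were not marked by molecular identifiers. With 2 libraries a group an exact permutation test of 1 value cannot go below p = 0.33.

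The libraries, gene lists and tests were chosen with earlier results of these data known. Named genes are the 12 largest rises and falls of at least 5 CPM with groups apart and the call kept without each library, 41 key genes, up to 3 called members per list, the 8 largest differences each way from the other lines and the 5 each way between times, and 5 genes whose DMSO libraries differ most; others are marked. Lists were described by counts and medians, with no set test. Positions come from GENCODE 29 (GRCh38) by symbol, which matched 16054 of 16794 tested genes, and promoter windows from RefSeq (GRCh38.p14), which matched 12176. Alternatives were DESeq2 1.42.0, other size factors, no filter, the MOLM-13 libraries alone, a replicate block and each library left out. Results for a few genes are not reported here.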

Additional observations from a re-analysis of the deposited data

Results flagged for a closer look

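A test of the difference between cell lines marked 1606 genes whose 24 h change was higher in MOLM-13 than the mean of MV-4-11 and THP-1, and 1724 whose change was lower. The 8 largest differences upward, on the log2 scale, were 5.52 for DHX16, 5.10 for EFNB2, 4.73 for GPAT3, 3.95 for CISH, 3.80 for SORL1, 3.63 for ZBTB16, 3.58 for DOCK9 and 3.45 for RGL2. EFNB2, an ephrin ligand gene, had 0.654 and 0.355 CPM in DMSO and 7.13 and 8.30 CPM after BRM014, and DOCK9, a CDC42 exchange factor gene, 1.11 and 1.14 CPM and 6.24 and 5.39 CPM. The call of DHX16 depends on single libraries. It had 1.83 and 0.426 CPM in DMSO and 2.48 and 27.6 CPM after BRM014, and its MOLM-13 change was 1.11 (adjusted p = 0.5) without treated replicate 2 and 3.03 (adjusted p = 0.07) without DMSO replicate 2. RGL2 had 0.916 and 0.924 CPM and 4.14 and 6.996 CPM, and its MOLM-13 change was not called without treated replicate 2 (2.16) or either DMSO library (2.59 and 2.60).

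The 8 largest differences downward were -7.20 for IL32, -5.89 for IGLL1, -5.36 for NEXN, -5.04 for ADAMTS14, -4.62 for IFIT2, -4.47 for CD48, -4.47 for PSMB3 and -4.06 for JAML. ADAMTS14, a procollagen protease gene, had 5.04 and 5.19 CPM in DMSO and 0.127 and 0.124 CPM after BRM014, and JAML, a leukocyte adhesion gene, 9.03 and 8.10 CPM and 0.382 and 0.0619 CPM, a change that was -6.96 without treated replicate 1. PSMB3, a proteasome subunit gene, was high in DMSO replicate 1 alone, with 39.8 and 2.56 CPM in DMSO and 5.35 and 2.48 CPM after BRM014; its change was 0.61 without that library.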

How the results depend on the processing

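Of 158 named genes, 156 kept their direction and side of the threshold under DESeq2, 158 with DESeq2's size factors, 150 with scaling by library size alone, 153 without the filter and, of 156 with a value there, 153 with the MOLM-13 libraries alone (CD14 and GFAP had none), and none of those with a value turned. With each library left out in turn, log2 changes of 9 named genes took both signs or reached 0. They ran from -3.02 to 2.03 for ABHD16A, -10.5 to 0 for GFAP (0 reads after BRM014, so the size is no bound), -1.95 to 3.37 for PANK4, -3.35 to 0.61 for PSMB3 and -3.95 to 2.19 for VARS, each highest without DMSO replicate 1. They ran from -0.011 to 0.14 for CDK6 (lowest without DMSO replicate 2), -0.43 to 0.18 for HOXA9 and -3.74 to 0.66 for RING1 (both highest without DMSO replicate 2), and -0.081 to 0.32 for CEBPB (lowest without treated replicate 1); PANK4 was at 0.024 without treated replicate 1. The counts with 1 library left out ran from 3150 to 3320 rises and 3189 to 3429 falls, 463 to 516 and 596 to 685 beyond 2-fold, 1161 to 1293 higher and 1099 to 1352 lower than in the other lines, 1303 to 1476 and 1448 to 1721 against MV-4-11, and 2757 to 2875 and 3190 to 3294 between the times; fewer libraries enter these fits. The 1099 came without treated replicate 2. Fold sizes of genes under 10 reads in a group are limited by depth.

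The labels do not say whether replicate numbers pair the libraries. Deviations of same-numbered libraries correlated at 0.085 over genes between DMSO and 24 h. With a single difference per group this value cannot show or exclude a pairing. With a replicate block 3701 genes rose and 3838 fell, 561 and 757 beyond 2-fold, 1475 were higher and 1569 lower than in the other lines, 1586 and 1818 against MV-4-11, and 3346 and 3705 between the times. Of 43 ribosomal protein genes 12 were then lower than in the other lines, against 24.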

Other observations

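Families picked after the values were seen extend the account of the protein synthesis machinery. Of 82 tested mitochondrial ribosomal protein genes 55 fell and none rose (median -0.49), of 18 cytosolic aminoacyl-tRNA synthetase genes 14 fell and none rose (median -0.98), and of 20 snoRNA host genes 16 fell and none rose (median -1.40), against 23.5% of all tested genes that fell. Of 40 proteasome subunit genes 22.5% rose and 17.5% fell, and of 506 genes with ZNF symbols 25.5% rose and 12.8% fell, against 22.7% and 23.5% of all tested genes; no difference between families was tested. Among 1032 tested long noncoding RNA genes 11.0% rose and 13.3% fell, and among 14353 protein-coding genes 24.6% and 25.3%. These shares were not matched for level, and genes with few reads are hard to call.

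The DMSO libraries of MOLM-13 differed most from each other in GFAP (9.62 and 0 CPM), ABHD16A (30.9 and 0.924 CPM), VARS (47.5 and 2.27 CPM), PANK4 (9.03 and 0.284 CPM) and RING1 (0.654 and 13.9 CPM). ABHD16A, VARS and RING1 lie in the MHC region of chromosome 6, where 7 of 41 genes differed over 4-fold between the DMSO libraries and 2 of 41 between the treated libraries. Genes under 5 CPM in both DMSO libraries, DHX16 and RGL2 among them, were not counted in these shares. The fall of RING1 was not called without treated replicate 2 (-2.51), and GFAP has reads in DMSO replicate 1 alone.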
